A study of Mus musculus with 11 samples.

Results

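The genes described here are 39 mouse genes that detect, signal and repair breaks in DNA or hold the cell cycle while breaks are present. They were taken by name from a list that uses no measured value as a criterion, though it was drawn up with earlier results of these data known, and all 39 were found among the 55414 gene identifiers of each library (Mre11a and H2afx are older symbols of Mre11 and H2ax). Bulk RNA was sequenced from heart apex of C57BL/6 mice in 3 groups: 4 libraries of unirradiated tissue (NR), 4 of tissue given standard proton radiotherapy (S-PRT) and 3 of tissue given FLASH proton radiotherapy (F-PRT), which delivers the dose at an ultra-high rate. A single dose of 40 Gy had been aimed at the apex alone, and the tissue was taken 2 weeks later. The labels call NR untreated, and give no age, sex or sham procedure, nor whether each library is a separate animal. The p-values therefore refer to variation among these 11 libraries, and that variation could be technical.

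A double-strand break is bound by the MRE11-RAD50-NBN complex, and phosphorylation of the histone H2AX beside it recruits MDC1, the ubiquitin ligases RNF8 and RNF168 and 53BP1. Cells outside S and G2 phase mostly rejoin the ends directly, through the Ku proteins and DNA ligase IV. Homologous recombination copies an intact sister chromatid instead, and many of its genes, with Chek1 and the Fanconi anaemia genes, are transcribed mainly in dividing cells. Adult heart muscle cells rarely divide, whereas endothelial cells, fibroblasts and leukocytes of the heart can. Most of the signalling in this pathway runs through phosphorylation, which RNA levels do not measure.

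Each library held 20758170 to 40136578 estimated counts, of which mitochondrial transcripts took 24.2% to 43.8%. Markers of ventricular muscle cells, all 8 of them, were abundant, with a summed level of 31700 to 64400 TPM (a level per transcript length, scaled to the same sum in every library) over the libraries. Libraries of a group stood apart from each other: the summed endothelial markers were at 298 TPM in the lowest and 1040 TPM in the highest F-PRT library. In bulk tissue, fewer cells of a type and less RNA per cell cannot be told apart.

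Promoters of 4 of the genes are printed to show letter patterns that recur among the promoters of the repair genes, though no pattern is common to all 4. They are 3 (Brca1, Rad51ap1, Chek1) of the 7 genes that had a positive fold change at an unadjusted p under 0.05 over both irradiated groups. Beside them is Xrcc6, whose RNA was level. Polk, Rad9b, H2afx and Rad54l, also among the 7, are not printed, and Polk, Rad9b and Rad54l held no E2F core. Each printed promoter runs 5′ to 3′ on the gene's strand from 250 bases before to 50 bases after the start of transcription, as given by RefSeq for GRCm38.p6. Capitals mark the core of an E2F site (TTCCCGC on either strand), the longer E2F site that overlaps it in Xrcc6 (TTTCCCGC) and the CCAAT box (CCAAT on either strand). Brca1 holds a CCAAT box and no core, and Chek1 a core and no CCAAT box. E2F factors switch on genes at entry into S phase, and the CCAAT box is bound by NF-Y. The regions are chr11:101551906-101552205 (minus strand), chr6:126939538-126939837 (minus strand), chr9:36726609-36726908 (minus strand) and chr15:82016119-82016418 (plus strand).
Brca1: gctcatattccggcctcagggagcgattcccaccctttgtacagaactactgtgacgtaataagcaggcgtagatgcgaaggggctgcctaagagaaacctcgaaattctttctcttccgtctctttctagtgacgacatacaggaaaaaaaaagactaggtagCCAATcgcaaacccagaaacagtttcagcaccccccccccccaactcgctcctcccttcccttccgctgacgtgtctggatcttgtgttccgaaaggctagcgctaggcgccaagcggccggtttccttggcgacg
Rad51ap1: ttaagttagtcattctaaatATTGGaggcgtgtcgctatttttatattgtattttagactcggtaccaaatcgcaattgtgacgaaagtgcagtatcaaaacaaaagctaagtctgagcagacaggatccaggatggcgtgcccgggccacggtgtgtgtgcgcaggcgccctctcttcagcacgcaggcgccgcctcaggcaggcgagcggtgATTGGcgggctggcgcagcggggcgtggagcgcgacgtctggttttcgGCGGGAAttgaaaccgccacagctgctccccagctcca
Chek1: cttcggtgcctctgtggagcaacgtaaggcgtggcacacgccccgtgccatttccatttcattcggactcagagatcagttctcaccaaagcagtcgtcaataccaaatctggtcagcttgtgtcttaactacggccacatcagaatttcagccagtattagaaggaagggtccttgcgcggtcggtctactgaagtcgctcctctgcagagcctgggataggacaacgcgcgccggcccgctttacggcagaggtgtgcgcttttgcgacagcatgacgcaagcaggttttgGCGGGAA
Xrcc6: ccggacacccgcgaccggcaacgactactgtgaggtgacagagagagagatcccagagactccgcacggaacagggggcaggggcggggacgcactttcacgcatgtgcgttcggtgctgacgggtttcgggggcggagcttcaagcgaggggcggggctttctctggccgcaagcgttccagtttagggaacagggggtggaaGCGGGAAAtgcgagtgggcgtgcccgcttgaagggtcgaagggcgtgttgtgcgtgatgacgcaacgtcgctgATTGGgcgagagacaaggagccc

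The promoter table held 31 of the 39 genes. The E2F core occurred in 13 of these 31 promoters (41.9%), against 4.66% of all 27025 promoters of the same length and 8.38% of the 10760 that belong to genes tested here. Longer E2F sites (TTTCCCGC, which contains the core, or TTTGGCGC) were in 5 (16.1%), against 1.63% of all promoters and 2.97% of those of tested genes. The shorter core was searched only after the sequences had been seen. The CCAAT box was in 16 (51.6%, against 37.9% of all and 38.5% of tested genes). The CHR element (TTTGAA) was in 4 (12.9%, against 18.1% and 12%) and the p53 half-site in 2, those of Fanca and Polk (6.45%, against 8.37% and 6.83%). The first promoter listed for each gene was counted, and a further promoter of Polk held no p53 half-site. In the pooled contrast of irradiated libraries against NR, the 13 genes with the core had a median log2 fold change of 0.05 (-0.34 to 0.99) and the 18 without it 0.03 (-0.20 to 1.84). Among the genes with the core, Rad51ap1 (0.99) and Chek1 (0.95) had the positive values at an unadjusted p under 0.05 and Mdc1 (-0.34) a negative one, none of them called, and Brca1, the 1 gene called in this contrast, had no core.

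Across the 39 genes, RNA levels in unirradiated apex spanned a wide range on the TPM scale. Parp1, which detects strand breaks and builds poly(ADP-ribose), had the highest mean, 13.5 ± 2 TPM (SD, n = 4). Xrcc6, the smaller Ku subunit, followed at 9.46 ± 2.12 TPM, and its highest library (11.72 TPM) overlapped the lowest of Parp1 (11.4 TPM). Nbn of the break-binding complex was at 6.85 ± 1 TPM and Xrcc1, the scaffold of single-strand break repair, at 6.25 ± 1.23 TPM, which did not differ beyond their spread. In all, 7 genes had a mean of at least 5 TPM, 23 of at least 1 TPM and 11 of under 0.5 TPM.

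The 11 lowest genes were Brca2, Rad51ap1, Blm, Chek1, Palb2, Exo1, Rad54l, Fanci, Fancd2, Bard1 and Brca1, all of homologous recombination, the Fanconi pathway or the replication checkpoint. Brca1 (0.045 ± 0.0451 TPM) and its partner Bard1 (0.0475 ± 0.015 TPM) were lowest and did not differ beyond their spread. Brca1 rested on 5, 1, 6 and 9 estimated counts in NR 1 to 4. Fancd2, the protein that the Fanconi core complex marks with ubiquitin, had 2 to 18 counts per library and fell below the count filter, so 38 genes were tested. Its level was 0.147 ± 0.0556 CPM (library-scaled read counts, on which all levels below are given) in NR (SD, n = 4), 0.322 ± 0.1 in S-PRT (n = 4) and, with n = 3, 0.222 ± 0.0962 in F-PRT. For these low genes the TPM also moved with the transcript length that the authors' software estimated in each library, which for Exo1 ranged from 488 to 7796 bases. Fold changes therefore rest on counts.

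**Figure D1:**
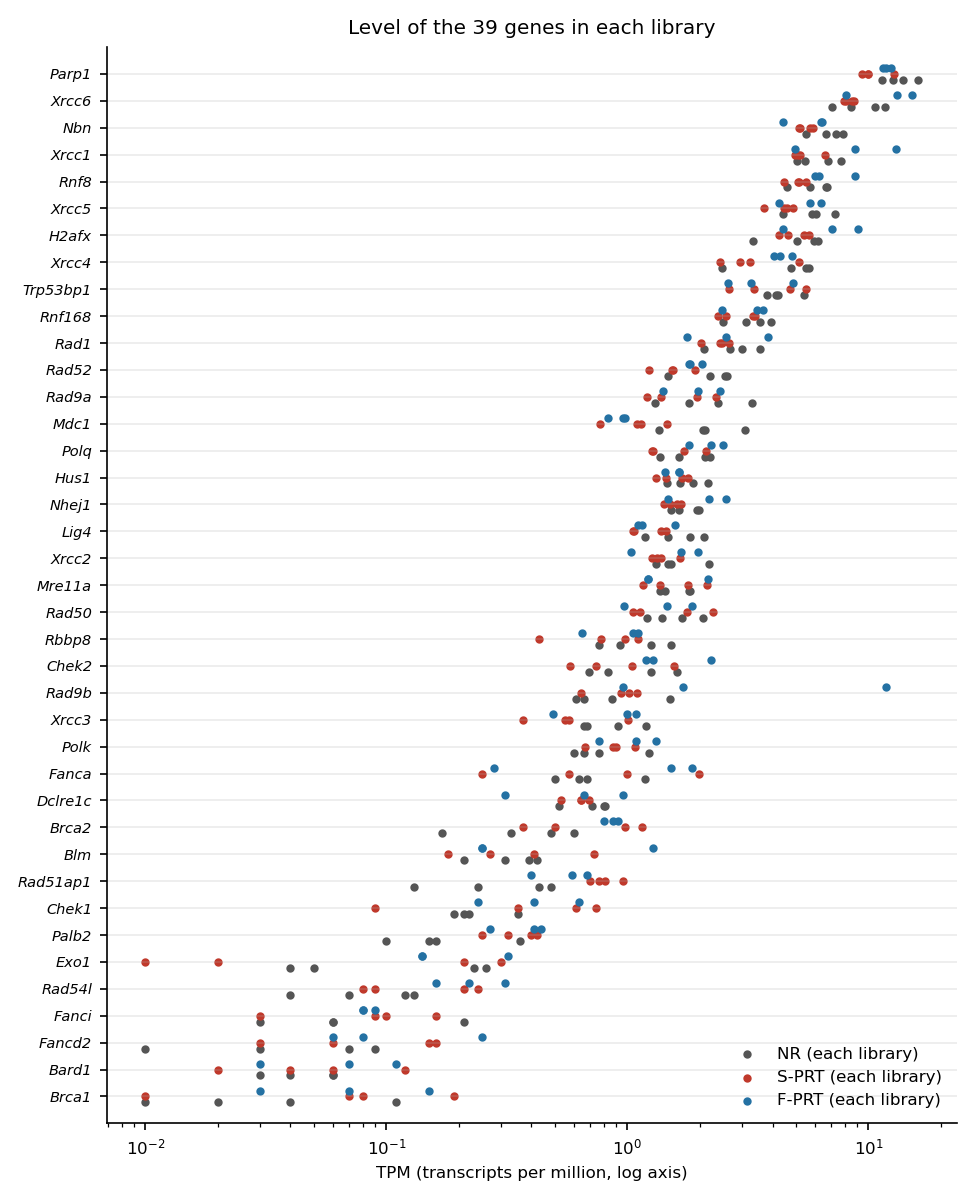
Level of each of the 39 genes (rows, ordered by mean) in TPM on a log axis, with 1 point per library in NR (grey), S-PRT (red) and F-PRT (blue). Parp1 leads at a mean of 13.5 TPM in NR, Brca1 and Bard1 sit lowest, and a single F-PRT point of Rad9b stands at 11.82 TPM.

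After standard proton irradiation, no gene of the 38 passed the adjusted threshold of 0.05 in edgeR's quasi-likelihood test, against 1.29% of all 14556 genes tested (0.872% higher and 0.419% lower). At an unadjusted p under 0.05, 3 were higher (Brca1, Rad51ap1 and Polk) and 0 lower, or 7.89% of the 38 against 18.3% of all genes, and DESeq2's Wald test called 0 of the 38 and 4.79% of all genes. The median log2 fold change of the 38 was 0.03, beside 0.01 over all genes. Same-numbered NR and S-PRT libraries deviated together, but no label says that they were paired. With a replicate block for these numbers, Brca1 (log2 fold change 1.88, adjusted p = 0.0202) and Rad51ap1 (1.27, adjusted p = 0.0321) were called, with 9.80% of all genes. Rad51ap1 had an adjusted p of 0.0508 once the trend on gene length was also removed, and Brca1 stayed under the threshold at 0.0217.

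After FLASH irradiation, 2 of the 38 genes were higher, Rad9b and Polk, and 0 lower, beside 19.5% of all genes (10.8% higher and 8.67% lower). With DESeq2's size factors the 2 called were Rad9b, higher, and Nbn, lower. At an unadjusted p under 0.05 there were 7 higher and 2 lower, or 23.7% of the 38 against 36.1% of all genes. The median log2 fold change was 0.04, beside 0.03 over all genes. In 9 genes every F-PRT library lay above every NR library, or 23.7% of the 38 against 17.5% of all genes, and in 1 gene, Nbn, every F-PRT library lay below (2.63%, against 13.9% of all genes). Those 9 were H2afx, Rad9b, Brca1, Rad54l, Fanci, Fanca, Nhej1, Xrcc1 and Polk. S-PRT gave 1 such gene on the higher side, Rad51ap1 (2.63%, against 7.34%), and 0 on the lower side (against 6.71%).

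Taking both irradiated groups against NR, with each group given equal weight, Brca1 was the 1 gene called, against 14.6% of all genes (8.15% higher and 6.40% lower). At an unadjusted p under 0.05 there were 7 higher and 2 lower, or 23.7% of the 38 against 33.2% of all genes. In none of the 38 did all 7 irradiated libraries lie above or all below NR, against 4.95% and 3.97% of all genes. Both contrasts with NR share the same 4 NR libraries, so their likeness in a gene is not independent. The plot of fold changes shows wide intervals for low-abundance genes, such as Brca1, Exo1, Fanci and Chek1, and for Rad9b, and narrower ones near 0 for abundant genes such as Xrcc5 and Xrcc6.

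**Figure D2:**
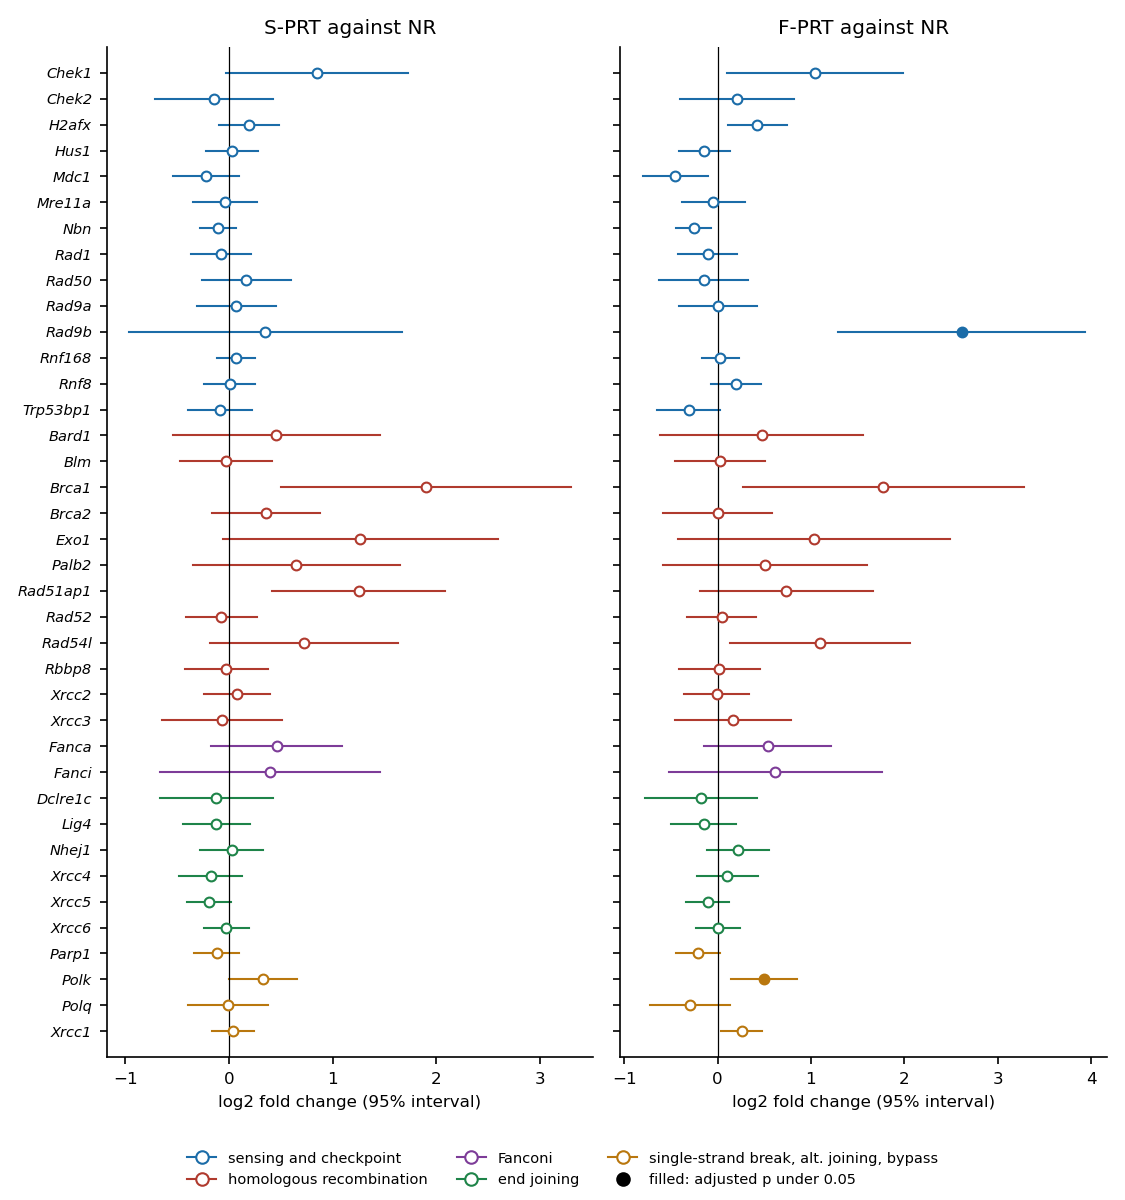
Log2 fold change of each tested gene (points) with its 95% interval (lines) after S-PRT (left) and F-PRT (right) against NR, coloured by role, with filled points for an adjusted p under 0.05. Rad9b and Polk are the filled points, both after F-PRT, and the 6 end-joining genes lie between -0.19 and 0.22 in both panels.

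Among the 14 genes of break sensing and checkpoint signalling, the median log2 fold change was 0.02 after S-PRT and -0.02 after F-PRT, with 0 and 1 genes called. Chek1 encodes the kinase that stalls the cycle when replication is damaged. It stood at 0.683, 0.336, 0.326 and 0.266 CPM in NR 1 to 4. In S-PRT 1 to 4 it was at 0.643, 0.291, 1.05 and 0.782 CPM, and in F-PRT 2 to 4 at 1.03, 0.667 and 0.719 CPM. The highest NR library overlapped both irradiated groups, and 3 of 4 S-PRT and 3 of 3 F-PRT libraries lay above the other 3 NR libraries. The log2 fold change was 0.85 ± 0.41 (SE) after S-PRT (adjusted p = 0.281) and 1.04 ± 0.43 after F-PRT (adjusted p = 0.102). Chek2, the kinase downstream of ATM, averaged 2.27 ± 0.472 CPM without irradiation, 2.06 ± 0.489 after S-PRT and 2.59 ± 1.09 after F-PRT, and passed in neither contrast (the lower adjusted p was 0.62).

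H2afx, the histone variant phosphorylated beside breaks, was at 5.03, 6.65, 6.9 and 6.15 CPM in NR. In S-PRT it was at 7.46, 6.79, 7.72 and 6.44 CPM and in F-PRT at 8.01, 7.01 and 9.81 CPM. All F-PRT libraries were above all NR libraries, while S-PRT overlapped NR. After F-PRT it differed by a log2 fold change of 0.43 ± 0.14, with an adjusted p of 0.054, and after S-PRT 0.20 ± 0.13 (adjusted p = 0.461). Whole counts were found in 4 of 11 libraries for this gene, and in the rest RSEM had split reads between it and other features.

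Mdc1, the adaptor that binds phosphorylated H2AX, went the other way. Its NR libraries held 9.65, 10.1, 8.8 and 10.3 CPM and its S-PRT libraries 8.23, 7.56, 8.06 and 9.43 CPM, while F-PRT 2 to 4 held 6.65, 9.45 and 5.41 CPM. F-PRT 3 lay within the NR range and F-PRT 2 and F-PRT 4 below it, for a log2 fold change of -0.45 ± 0.16 (adjusted p = 0.067). Nbn was at 16.8, 17.6, 16.9 and 15.6 CPM in NR and at 14.5, 13.9 and 13.6 CPM in F-PRT, with no overlap and a log2 fold change of -0.26 ± 0.09 (adjusted p = 0.0575). Its partners Mre11a (-0.05 ± 0.16) and Rad50 (-0.15 ± 0.22) had intervals that included 0, as did Rnf8, Rnf168, Trp53bp1, Rad1, Hus1 and Rad9a in both contrasts with NR.

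Gene length moved with these values. Over the 14556 tested genes, the log2 fold change of F-PRT against NR had a Spearman correlation of -0.55 with gene length, so shorter genes were higher, and over the 38 genes it was -0.30 (across genes of the same libraries, as a description). H2afx is among the shortest of the 38 (1384 bases) and Mdc1 among the longest (6046 bases, averaged over libraries). With each library's trend on length removed, H2afx was at 0.17 ± 0.12 (adjusted p = 0.427) and Mdc1 at -0.15 ± 0.12 (adjusted p = 0.491), whereas Nbn remained at -0.26 ± 0.09 (adjusted p = 0.106). Polk, itself long at 3889 bases, was at 0.67 ± 0.16 and was still called (adjusted p = 0.0447). The trend on length was not confined to F-PRT against NR. Over all genes the correlation was -0.38 for S-PRT against NR, -0.51 pooled and -0.45 for F-PRT against S-PRT. Over the 38 genes it was -0.00, -0.20 and -0.37, in the same order.

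**Figure D3:**
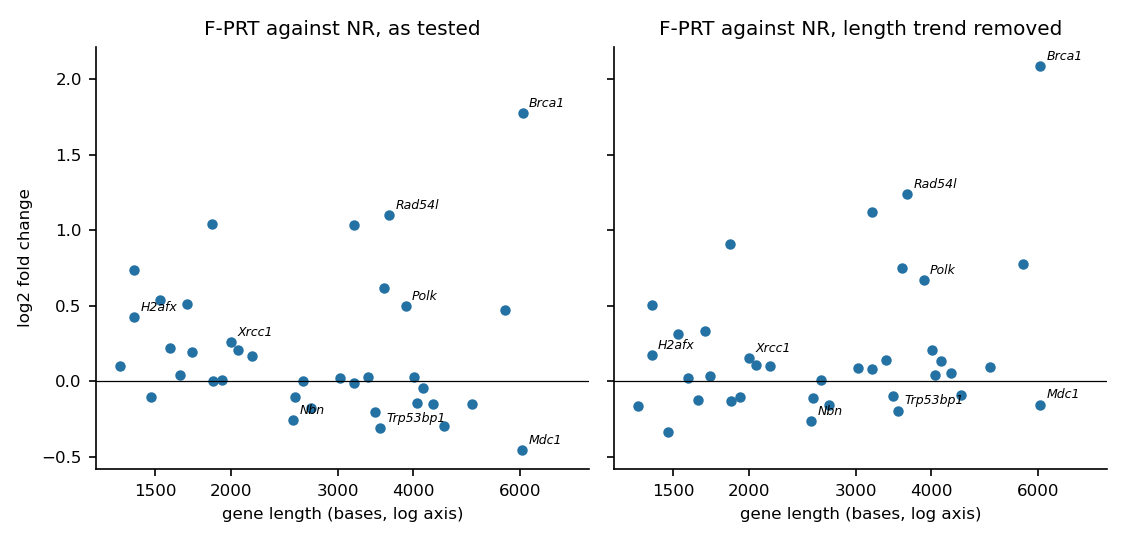
Log2 fold change of F-PRT against NR (vertical axis) by gene length in bases (log axis) for the tested genes other than Rad9b, as tested (left) and with each library's trend on length removed (right). H2afx moves from 0.43 to 0.17 and Mdc1 from -0.45 to -0.15 toward 0, while Brca1 (1.78 and 2.08) and Polk (0.50 and 0.67) do not.

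Rad9b gave the largest fold change of the 38 genes after F-PRT, and its size came mainly from a single library. It encodes a paralogue of RAD9A, part of the ring-shaped clamp that loads beside damaged DNA with RAD1 and HUS1. Its level was 1.21, 1.46, 1.36 and 2.35 CPM in NR, 1.37, 2.96, 2.06 and 1.97 CPM in S-PRT, and 3.34, 2.78 and 23.2 CPM in F-PRT 2 to 4. F-PRT 4 carried 806.39 of its estimated counts, while the other 10 libraries carried 30.21 to 106. The log2 fold change against NR was 2.61 ± 0.61 (adjusted p = 0.015), and without F-PRT 4 it was 0.92 ± 0.32 (adjusted p = 0.0822). It was called in 15 of 21 alternatives, and the lowest fold change among the 21 was 0.92. F-PRT 2 and F-PRT 3 also lay above every NR library, by far less than F-PRT 4. Only 1 of 11 libraries gave a whole count, so its reads were split with other features and the value is uncertain. Of 4 neighbours on the chromosome, Tctn1 was at 3.18 CPM in F-PRT 4 (2.74 to 3.8 in NR), Vps29 at 28.3 CPM (22.9 to 25.6), Fam216a at 4.84 CPM (3.81 to 4.54) and Pptc7 at 84.7 CPM (132 to 157). Vps29 and Fam216a lay just above and Pptc7 below their NR range there, none with a shift of the size seen in Rad9b. Its clamp partners were level in the same comparison, at 0.00 ± 0.19 for Rad9a, -0.10 ± 0.14 for Rad1 and -0.14 ± 0.12 for Hus1 on the log2 scale.

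The 12 genes of homologous recombination had a median log2 fold change of 0.41 after S-PRT and 0.32 after F-PRT. Over all genes it was 0.01 and 0.03. Above 0 were 8 and 11 of the 12 (66.7% and 91.7%), beside 51.3% and 52.8% of all genes. Of the 11 after F-PRT, Brca2 (0.001), Rbbp8 (0.020), Blm (0.027) and Rad52 (0.043) were close to 0. With DESeq2's size factors 8 and 8 were above 0, and the medians were 0.22 without S-PRT 4 and 0.11 without F-PRT 2. None was called against NR in either group alone without the replicate block, under which Brca1 and Rad51ap1 were called after S-PRT, and Brca1 was called with both groups pooled. Brca1 promotes the resection of broken ends and the early steps of recombination. Its level was 0.201, 0.0374, 0.178 and 0.2 CPM in NR, 0.6, 0.097, 0.585 and 1.02 CPM in S-PRT, and 0.95, 0.278 and 0.403 CPM in F-PRT. S-PRT 2, on 2 counts, lay within the NR range, and the other 6 irradiated libraries lay above it. The log2 fold change was 1.90 ± 0.65 after S-PRT (adjusted p = 0.136, or 0.0202 with the replicate block), 1.78 ± 0.69 after F-PRT (adjusted p = 0.0767) and 1.84 ± 0.60 pooled (adjusted p = 0.0495). The counts behind these values ran from 1 to 43 per library, and over the 20 alternatives the pooled adjusted p ranged from 0.0206 to 0.703, with 4 under 0.05. Leaving out any one library other than S-PRT 2 or F-PRT 3 ended the pooled call.

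Rad51ap1 encodes a DNA-binding protein that promotes strand invasion. Its NR libraries were at 0.281, 0.187, 0.622 and 0.533 CPM. S-PRT stood clear of them at 0.686, 0.824, 1.54 and 0.924 CPM, whereas F-PRT, at 0.76, 0.834 and 0.547 CPM, overlapped. This gave log2 fold changes of 1.25 ± 0.38 after S-PRT (adjusted p = 0.117, or 0.0321 with the replicate block) and 0.74 ± 0.43 after F-PRT (adjusted p = 0.227).

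Rad54l, the motor protein that drives strand exchange, was at 0.241, 0.299, 0.444 and 0.4 CPM in NR. It was at 0.171, 0.485, 0.923 and 0.687 CPM in S-PRT and at 0.646, 0.834 and 0.806 CPM in F-PRT. Here F-PRT stood clear of NR and S-PRT did not. Log2 fold changes were 0.72 ± 0.42 (adjusted p = 0.375) and 1.10 ± 0.44 (adjusted p = 0.0912), in the same order. No library gave it a whole count, so its reads were split with other features throughout.

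Exo1, the nuclease of long-range resection, had a log2 fold change of 1.27 ± 0.61 after S-PRT and 1.04 ± 0.67 after F-PRT, on 2 to 23 counts per library (adjusted p = 0.276 and 0.275). Palb2, which bridges BRCA1 and BRCA2, was at 0.65 ± 0.46 and 0.51 ± 0.51, and Bard1 at 0.46 ± 0.46 and 0.47 ± 0.50. Brca2, a mediator of strand exchange, was at 0.36 ± 0.24 and 0.00 ± 0.27. The 95% intervals of all 4 included 0. The remaining 5 genes (Rbbp8, Blm, Rad52, Xrcc2 and Xrcc3) lay between -0.07 and 0.17 in both contrasts.

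**Figure D4:**
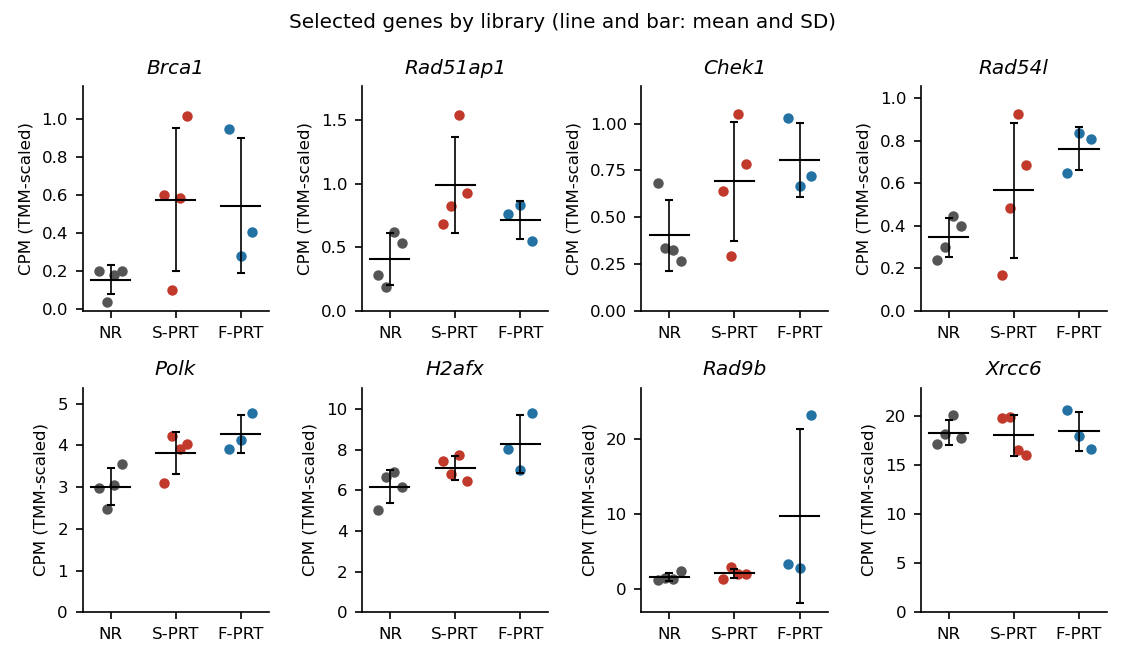
Scaled CPM of 8 genes in each library (points) of NR, S-PRT and F-PRT, with the mean (horizontal line) and SD (bar). Brca1, Rad51ap1, Chek1 and Rad54l vary widely between irradiated libraries, the Rad9b mean after F-PRT rests on 1 library at 23.2 CPM, and Xrcc6 is at a like level in all 3 groups.

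Fanca and Fanci of the Fanconi pathway, which unhooks crosslinks between the DNA strands, were the tested members of that group. Fanca belongs to the core complex and was at 0.764, 0.972, 0.948 and 0.688 CPM in NR and at 1.29, 0.97, 0.677 and 1.66 CPM in S-PRT, while F-PRT libraries held 1.06, 1.06 and 1.5 CPM. All F-PRT libraries exceeded all NR libraries and the S-PRT libraries spanned them. Its log2 fold change was 0.46 ± 0.29 after S-PRT (adjusted p = 0.421) and 0.54 ± 0.32 after F-PRT (adjusted p = 0.236). Fanci, the partner of FANCD2, was at 0.40 ± 0.49 and 0.62 ± 0.53 (adjusted p = 0.71 and 0.413). Neither gene had whole counts in any library.

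The 6 genes of non-homologous end joining showed no call. Their log2 fold changes ran from -0.19 to 0.03 after S-PRT and from -0.18 to 0.22 after F-PRT, with medians of -0.12 and -0.05. Xrcc6 was at 17.2, 18.2, 20.1 and 17.8 CPM in NR, at 19.8, 19.9, 16.5 and 16 CPM in S-PRT and at 20.6, 18 and 16.7 CPM in F-PRT. Its groups overlapped throughout, and the 95% interval of the log2 fold change was -0.24 to 0.19 after S-PRT and -0.23 to 0.24 after F-PRT. Xrcc5, the larger Ku subunit, averaged 14.4 ± 1.19 CPM in NR, 12.6 ± 1.53 after S-PRT and 13.4 ± 0.334 after F-PRT, for -0.19 ± 0.10 (adjusted p = 0.323) and -0.10 ± 0.11 (adjusted p = 0.512). Lig4, the ligase that seals the ends, was at -0.12 ± 0.15 and -0.15 ± 0.16 (adjusted p = 0.716 and 0.539). The ligase cofactor Xrcc4 was at -0.17 ± 0.14 and 0.10 ± 0.15, the bridging factor Nhej1 at 0.03 ± 0.14 and 0.22 ± 0.15, and the nuclease Dclre1c at -0.12 ± 0.25 and -0.18 ± 0.28. A p that misses the threshold does not show that these genes were unaltered, and for Dclre1c the interval after F-PRT ran from -0.77 to 0.43.

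Polk was called after F-PRT. It encodes polymerase kappa, which copies past damaged bases. Its level was 2.98, 2.47, 3.05 and 3.55 CPM in NR, 3.09, 4.22, 3.91 and 4.03 CPM in S-PRT, and 3.91, 4.12 and 4.78 CPM in F-PRT. F-PRT lay wholly above NR, and 3 of 4 S-PRT libraries did. The log2 fold change was 0.50 ± 0.16 after F-PRT (adjusted p = 0.0475) and 0.33 ± 0.15 after S-PRT (adjusted p = 0.265). It was under 0.05 in 4 of 21 alternatives for F-PRT, with adjusted p from 0.0412 to 0.583 and a positive fold change in all 21. Leaving out any one of NR 1, NR 2, NR 3, S-PRT 2, S-PRT 3, S-PRT 4 or an F-PRT library ended the call.

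Xrcc1 was at 11.9, 11.3, 12.5 and 12.5 CPM in NR, 12.8, 12.9, 11.4 and 12.5 CPM in S-PRT and 13.9, 12.8 and 16.3 CPM in F-PRT. F-PRT stood above NR without overlap, and the log2 fold change was 0.26 ± 0.10 (adjusted p = 0.0832), or 0.15 ± 0.08 (adjusted p = 0.296) with the length trend removed. Parp1 averaged 46.2 ± 2.7 CPM in NR, 42.6 ± 2.02 after S-PRT and 40.1 ± 7.07 after F-PRT, for -0.12 ± 0.10 (adjusted p = 0.58) and -0.21 ± 0.11 (adjusted p = 0.194). Polq, the polymerase of alternative end joining, was at -0.01 ± 0.18 and -0.30 ± 0.20 (adjusted p = 0.991 and 0.298).

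Setting FLASH against standard irradiation directly, edgeR called 0 of the 38 genes and 0% of all 14556. At an unadjusted p under 0.05, 2 of the 38 (5.26%) differed, Rad9b and Xrcc1, both higher in F-PRT, against 15.9% of all genes, and DESeq2 called 0 of the 38 and 1.63% of all genes it tested. The median log2 fold change was 0.00 for the 38 and 0.00 for all genes. The intervals were wide for the low genes: -0.13 (95% interval -1.42 to 1.17) for Brca1, 0.19 (-0.71 to 1.09) for Chek1 and -0.51 (-1.39 to 0.36) for Rad51ap1. They were narrow for the abundant ones, at 0.03 (-0.20 to 0.27) for Xrcc6 and -0.09 (-0.33 to 0.15) for Parp1. Polk differed by 0.17 (-0.19 to 0.52) between the groups, so its call in F-PRT and not in S-PRT does not show that the groups differ, nor that they are alike. No gene of the 38 had groups without overlap, while 5.45% of all genes were wholly higher and 5.17% wholly lower.

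Other genes of break repair and checkpoints were a list of 93 matched genes, of which 90 were tested. After S-PRT 0 were called, beside 1.29% of all genes, and 7 with the replicate block, beside 9.80%. After F-PRT 9 were higher and 6 lower, beside 10.8% and 8.67% of all genes. The S-PRT block called 6 higher and 1 lower. DESeq2 called 4 after S-PRT, beside 4.79% of all genes. At an unadjusted p under 0.05, 13 were higher and 4 lower after S-PRT, or 18.9% against 18.3% of all genes. After F-PRT, the list's share at an unadjusted p under 0.05 was 37.8%, against 36.1% of all genes. Dna2, a nuclease of resection, rose from 0.468 ± 0.0726 CPM in NR to 1.23 ± 0.245 in F-PRT, for a log2 fold change of 1.37 ± 0.30 (adjusted p = 0.0125). Clspn, the adaptor that brings CHK1 to its activating kinase, rose by 1.92 ± 0.50 on the log2 scale (adjusted p = 0.0193). Babam1, of a BRCA1-linked deubiquitinase complex, rose by 0.40 ± 0.08 (adjusted p = 0.00907). Atm, the kinase that starts the break signal, fell from 7.24 ± 1.09 to 3.2 ± 1.74 CPM, for -1.22 ± 0.30 (adjusted p = 0.019). Lig3, the ligase partner of XRCC1, was at -0.59 ± 0.12 (adjusted p = 0.0118). The corresponding values after S-PRT, none called, were 1.08 ± 0.28 for Dna2, 1.53 ± 0.47 for Clspn, 0.26 ± 0.07 for Babam1, -0.41 ± 0.26 for Atm and -0.17 ± 0.11 for Lig3. With the length trend removed, 3 of the 90 were higher and 1 lower after F-PRT, with 3.41% of all genes called. Whether Dna2, Clspn, Babam1, Atm or Lig3 are among them is not reported here, so their values above include any part of that trend. With DESeq2's size factors 6 were higher and 6 lower, with 18.9% of all genes called. Pooled over both irradiated groups, 5 were higher and 3 lower, beside 8.15% and 6.40% of all genes.

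Markers of dividing cells and of p53 activity were measured beside these genes. Of 39 proliferation genes, 5 rose after S-PRT (23 with the replicate block) and 11 after F-PRT, with 0 lower in either. Of all genes, 0.872% were called higher after S-PRT and 10.8% after F-PRT. Cdk1, the mitotic kinase, rose from 0.545 ± 0.165 CPM in NR to 1.66 ± 0.702 after S-PRT and 1.32 ± 0.286 after F-PRT, and Mcm5, of the replicative helicase, from 2.21 ± 0.618 to 5.24 ± 1.65 and 4.8 ± 1.31 CPM. Of 27 p53 targets, 10 rose after S-PRT, and 15 rose and 1 fell after F-PRT. Cdkn1a, the cell cycle inhibitor p21, rose from 7.96 ± 2.78 CPM to 46.1 ± 23.1 and 51.3 ± 10.4 CPM, a log2 fold change of 2.52 ± 0.34 (adjusted p = 0.00705) and 2.67 ± 0.36 (adjusted p = 0.00349). Bax, which opens the mitochondrial membrane in apoptosis, rose from 11 ± 1.35 CPM to 25.9 ± 4.27 and 32.5 ± 5.91 CPM.

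Per library, the homologous recombination genes were highest where the proliferation genes and the p53 targets were highest. Their mean log2 CPM relative to the NR mean was 0.03, 0.21, 0.65 and 0.71 in S-PRT 1 to 4 and 0.72, 0.27 and 0.21 in F-PRT 2 to 4, against -0.13 to 0.10 in NR. For the proliferation genes the same libraries gave 0.56, 0.61, 1.31, 1.30, 1.15, 0.35 and 0.75, and NR -0.36 to 0.31. The p53 targets gave 0.61, 0.50, 1.10, 1.09, 1.03, 0.75 and 0.82, and NR -0.20 to 0.15. S-PRT 3, S-PRT 4 and F-PRT 2 were the highest libraries for all 3 lists, and the order of the other irradiated libraries differed. F-PRT 3 had the lowest irradiated proliferation mean (0.35), with a recombination mean (0.27) above S-PRT 1, S-PRT 2 and F-PRT 4. The recombination mean of S-PRT 1 (0.03) lay within the NR range. The end-joining genes stayed between -0.16 and 0.12 in all 11 libraries.

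**Figure D5:**
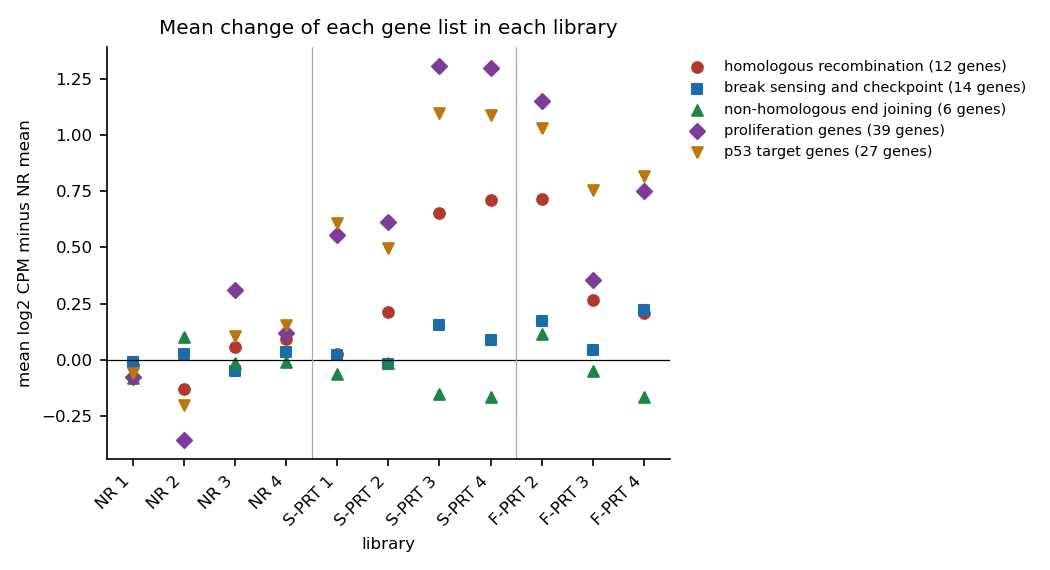
Mean over a list's genes of log2 CPM minus the NR mean (vertical axis) in each of the 11 libraries, for 3 role groups of the repair genes, proliferation genes and p53 targets. Recombination genes, proliferation genes and p53 targets are all highest in S-PRT 3, S-PRT 4 and F-PRT 2, and end-joining genes stay near 0.

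Markers of macrophages and monocytes moved with the same libraries, at 1.52, 1.24 and 1.12 in S-PRT 3, S-PRT 4 and F-PRT 2, 0.25 to 0.70 in the other irradiated libraries and -0.41 to 0.33 in NR. Of the 9 macrophage markers, 1 was higher after S-PRT, 2 after F-PRT and 4 in the pooled contrast, and their summed level ranged over 78.8 to 174 TPM in NR, 113 to 263 TPM after S-PRT and 92.2 to 247 TPM after F-PRT. Ccr2, a receptor of recruited monocytes, rose from 1.89 ± 0.406 CPM in NR to 9.49 ± 3.5 after S-PRT and 8.59 ± 1.04 after F-PRT. The median log2 fold change of the 9 was 0.78 after S-PRT, 0.63 after F-PRT and 0.67 in the pooled contrast. After F-PRT, and also pooled, 1 of the 9 was below 0. Endothelial markers were lower in 2, 2 and 4 of 8 in the same contrasts, with sums of 383 to 719 TPM in NR, 268 to 375 TPM after S-PRT and 298 to 1040 TPM after F-PRT, and fibroblast markers in 0, 2 and 2 of 7, with sums of 315 to 796, 312 to 393 and 143 to 530 TPM. Of all genes, 0.872%, 10.8% and 8.15% were called higher after S-PRT, after F-PRT and pooled, and 0.419%, 8.67% and 6.40% lower. No marker of these lists was at 0 in every library. The part of cell composition in the values of the repair genes was not tested.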

How the data were processed

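Sample titles gave the groups and their numbers (NR and S-PRT 1 to 4, F-PRT 2 to 4). Per the labels' protocols, libraries were made from total RNA with a poly(A) selecting, directional kit. The tools named, per the submitters' processing notes, are STAR and RSEM for alignment and counting, cutadapt and FastQC for reads, and edgeR, and the genome builds listed are GRCm39 and mm10. No source used here gives the strand setting of the counting, so overlapping and antisense genes cannot be told apart. The authors deposited expected counts per gene, in which RSEM shares ambiguous reads between genes, and TPM (levels per effective length), per the file headers, with abundance-weighted gene and effective lengths.

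The 39 genes and all lists were chosen with earlier results of these data known. Expected counts were rounded, filtered (filterByExpr, minimum count 10, minimum total 15), scaled by TMM and fitted with edgeR 4.0.16 (quasi-likelihood, R 4.3.3) over all 11 libraries, with 8 residual degrees of freedom and Benjamini-Hochberg adjustment over 14556 genes. Errors of fold changes and 95% intervals come from that fit. On simulated data, the intervals were checked for S-PRT against NR alone. Changes were simulated only in genes above a minimum level, which Brca1, Chek1, Rad51ap1, Rad54l, Exo1, Palb2, Bard1 and Fanci did not reach. Of 1.5-fold changes, set in 67 of 14556 genes, 47.8% were recovered for S-PRT and 26.9% for F-PRT. The simulated counts held no trend on gene length and few changed genes, unlike the data. These rates therefore need not hold for the real contrasts. CPM are TMM-scaled, and log2 CPM for list means used a prior count of 2. The text names every called gene, the 2 genes with the smallest pooled p in each role group, and others among the 39 so that each is accounted for. Alternatives used DESeq2 1.42.0, limma 3.58.1 on log2(TPM + 1) or log2(TPM + 0.1), other scalings and filters, a length correction, a replicate block and each library left out. Same-numbered NR and S-PRT libraries deviated together over 11107 genes (correlations 0.27, 0.28, 0.36 and 0.18), while F-PRT pairs did not (-0.45 to 0.23). The replicate block rests on these values and on the numbers in the titles. No label gives a pairing, and libraries of different numbers were not compared in this way. The mitochondrial share also fell with the number, from 43.8% to 30.6% in NR and from 43.5% to 37.1% in S-PRT. No Shld3 or Hrob was matched. Some genes of the lists are counted but not reported by name here.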

Additional observations from a re-analysis of the deposited data

Results flagged for a closer look

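Of 78 sets of libraries (a gene in a group of 4), 4 held a library far from the other 3. Chance gives about 1 in 20, so this count is about what chance alone would give. In NR 2, Brca1 was at 0.0374 CPM, with 0.178 to 0.201 CPM in the others, and Blm, a helicase that dissolves recombination intermediates, at 1.42 CPM, with 1.09 to 1.13 CPM in the others. In NR 1, Chek1 was at 0.683 CPM, with 0.266 to 0.336 CPM in the others. In NR 3, Palb2 was at 0.622 CPM, with 0.244 to 0.281 CPM in the others. F-PRT has 3 libraries, so Rad9b in F-PRT 4 was not assessed in this way.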

How the results depend on the processing

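Counts of the 39 genes called moved with most choices. After F-PRT (2 as reported, with 19.5% of all genes), 1 was called with library size only (0.921% of all genes), 1 without the count filter (10.2%), 4 by DESeq2 (24.9%; Nbn and Mdc1 lower, H2afx and Polk higher), 0 and 0 by limma on log2(TPM + 1) and log2(TPM + 0.1) (0.488% and 0.508%), 1 with only the groups compared (14.2%), and 0 under the replicate block (0.199%) or the block with length correction (0.0618%). Leaving out single libraries gave 0 (without F-PRT 4, 9.56%) to 4 (without F-PRT 3, 26.1%). Pooled (1 as reported, 14.6%), 0 were called with DESeq2's size factors (14.3%), library size only (1.46%), both limma settings (0.227% and 0.419%), both replicate block fits (6.25% and 0.364%) and the length correction (2.88%). There were 2 without the filter (8.49%), 2 by DESeq2 (20%), and 0 to 5 (without F-PRT 3, 22.5%) with libraries left out. F-PRT against S-PRT (0, with 0%) gave 1 without the filter (0.259%), Rad9b, and 0 to 1 (without F-PRT 3, 0.714%) with libraries left out. S-PRT (0, with 1.29%) gave 2 under the replicate block (9.80%), 1 with length correction added (6.05%), and 0 with any library left out. Library size only shifted the median of all genes by -0.14 after S-PRT and by 0.19 for F-PRT against S-PRT on the log2 scale.

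Brca1 for F-PRT against S-PRT (-0.13) turned positive with library size only (0.053), limma on log2(TPM + 0.1) (0.00), the length correction (0.10, or 0.19 with the block), and without S-PRT 4 (0.32), F-PRT 3 (0.13) or F-PRT 4 (0.08), and ranged from -0.775 to 0.322 with libraries left out. Lig4 pooled (-0.13) turned positive with the length correction (0.014, or 0.025 with the block). Brca1 and Lig4 are the ones that changed sign among the called genes in any contrast and the lowest-p genes in the pooled contrast. In other contrasts further lowest-p genes changed sign. Examples are Fanci for F-PRT against S-PRT (-0.047 to 0.581) and H2afx for S-PRT against NR (-0.013 to 0.254). Over all 38, up to 14 signs changed (limma on log2(TPM + 1), F-PRT against S-PRT), where for example Exo1 ranged from -1.02 to 0.52, Brca2 from -0.66 to 0.29, Parp1 from -0.20 to 0.19 and Fanca from -0.17 to 0.33. The causes were not tested.

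The other pathway genes called after F-PRT (15) were 0 with library size only, 1 and 1 by limma, 8 with only the groups compared, 0 and 0 under the replicate block fits, 4 with the length correction and 6 (without NR 2 or F-PRT 4) to 23 (without F-PRT 3) with libraries left out. Pooled (8), they were 0, 13 without the filter, 15 by DESeq2, 1 and 1 by limma, 4 and 0 under the block fits, 3 with the length correction and 2 (without NR 1, NR 2 or NR 3) to 20 (without F-PRT 3). After S-PRT (0), they were 1 without the filter, 4 by DESeq2, 4 with only the groups compared, 7 and 5 under the block fits and 0 to 1 (without F-PRT 4).

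Proliferation genes after F-PRT (11) were 0 with library size only, 0 and 0 by limma, 0 and 0 under the block fits, 6 with the length correction and 2 (without F-PRT 2) to 21 (without F-PRT 3) with libraries left out. Pooled (19), they were 0, 0 and 0 by limma, 10 and 1 under the block fits, 11 with the length correction and 4 (without NR 1) to 26. After S-PRT (5), they were 0, 16 without the filter, 16 by DESeq2, 0 and 0 by limma, 10 with only the groups compared, 23 and 22 under the block fits, 2 with the length correction and 0 (without any NR library, S-PRT 3 or S-PRT 4) to 9 (without F-PRT 4). The p53 targets after F-PRT (16) were 5 with library size only, 3 and 3 by limma, 3 and 2 under the block fits and 12 to 16. Pooled (17), they were 7, 3 and 5 by limma, 6 under the block with length correction, 11 with the length correction and 10 (without NR 1) to 18. After S-PRT (10), they were 1, 0 and 0 by limma and 4 (without NR 1, NR 3 or S-PRT 3) to 10. In the fits with 1 library left out of 3, the spread is shared with the other groups. The pooled contrast uses all libraries, so no smaller fit exists for it.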
